A study of Arabidopsis thaliana with 8 samples.

Results

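The 10 genes described here answer cold, drying or salt in Arabidopsis thaliana, and they were taken by locus identifier: ERD1 (AT5G51070), NHX1 (AT5G27150), COR15A (AT2G42540), COR15B (AT2G42530), COR47 (AT1G20440), ERD10 (AT1G20450), KIN1 (AT5G15960), COR6.6 (AT5G15970), RD29A (AT5G52310) and SOS1 (AT2G01980). They are 10 of 27444 nuclear protein-coding genes, and 11 of the 19583 peaks in the lists fell on them. The peaks come from miCLIP-seq, in which an antibody against N6-methyladenosine (m6A), a methyl mark on messenger RNA, is fixed to poly(A)+ RNA by ultraviolet light before the caught fragments are read. There were 4 libraries of bound RNA, 2 from wild-type leaves and 2 from leaves of ABI3:MTA plants, called mta by the submitters. The construct's name places MTA, the catalytic subunit of the m6A methyltransferase, under the promoter of ABI3, a gene active in embryos. Both genotypes are Col-0, were kept at 22 °C under days of 16 h light, and gave leaves 5 to 9 at an age of 4 weeks. The labels name no cold, drought or salt treatment for any sample, so the peaks describe these genes in leaves without a stated stress treatment. Whether the leaves were free of stress is not shown by the lists.

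In Arabidopsis, cold and drying switch on genes through CBF and DREB transcription factors and through abscisic acid. Many of the induced proteins are small, hydrophilic and disordered, and they shield membranes and enzymes as water is lost; COR15A and the dehydrins COR47 and ERD10 are examples. Salt is met mainly by sodium and proton antiporters, NHX1 at the vacuole and SOS1 at the plasma membrane. The m6A mark is set on many plant messenger RNAs near the stop codon and in the 3' UTR.

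The wild-type lists held 8973 and 6584 peaks and the mta lists 1934 and 2092, and read depth is unknown. Each peak has a position, a strand and the authors' score. For rank, the score is given as a percentile within its own list (the share of peaks that score lower, with ties counted at their midpoint). Raw scores are also printed, and a minimum of 50 was tried. Median scores were 50 and 29 in the wild-type lists and 34 and 52 in the mta lists. Raw scores should therefore not be compared between libraries. RNA levels are not in the lists, so a gene with little RNA and a gene with little m6A cannot be told apart, nor can fewer cells of a type and less RNA per cell. Of 8 leaf markers and 4 embryo and seed markers, 0 had a peak in any list, so the lists offer no check of the tissue. The labels do not say that replicates came from separate plants, and the spread between them may be technical.

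In these leaves 4 of the 10 genes had a peak: ERD1, NHX1, COR15A and COR6.6. ERD1 had a peak over the same stretch of its 3' UTR in all 4 libraries. NHX1 also had a peak in all 4, but in the 3' UTR in wild type and in the coding sequence in mta. COR15A had a 3' UTR peak in both mta libraries but in no wild-type library, and COR6.6 had one in mta replicate 1. COR15B, COR47, ERD10, KIN1, RD29A and SOS1 had none.

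The stretches that carry these peaks are shown so that the position of each can be seen. They were read from RefSeq's TAIR10.1 copy of the genome on the gene's strand, 5′ to 3′, in DNA letters and lower case. Capitals mark RRACH (R is either purine, A or G, while H is any base but G), the textbook m6A consensus, and TRTAY (Y is C or T), the DNA form of a plant motif reported near m6A. Only the strand shown was searched. For UTRs 30 bases are given, and for the NHX1 coding peak all bases that both mta peaks cover.
ERD1 3' UTR, middle of the stretch common to all 4 libraries, chr5:20768499-20768528, plus strand: TGTATATaaagattctttgatTATACtcac
NHX1 3' UTR, middle of the stretch common to both wild-type libraries, chr5:9557391-9557420, plus strand: gagcagaaagcaAAACAtggcaactttgaa
NHX1 coding sequence, stretch common to both mta libraries, chr5:9555598-9555654, plus strand: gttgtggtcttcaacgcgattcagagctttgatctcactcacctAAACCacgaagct
COR15A 3' UTR, middle of the stretch common to both mta libraries, chr2:17711109-17711138, minus strand: ttgtaatttctattaatttcacatcacaac
COR6.6 3' UTR, around the RRACH of the mta replicate 1 peak, chr5:5212639-5212668, plus strand: tttaagttctaaGAACTttgttttaccatc
The ERD1 letters hold 3 TRTAY matches, of which TGTAT and TATAT overlap, and 0 RRACH. Both NHX1 stretches hold 1 RRACH each, and the COR15A letters hold neither motif. The COR6.6 letters were centred on the motif, where the other UTR letters are the middle of their stretch, and run 7 bases past the end of its peak. The middle 30 bases of the COR6.6 peak, from 5212622 to 5212651, hold neither motif, as with COR15A.

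**Figure D1:**
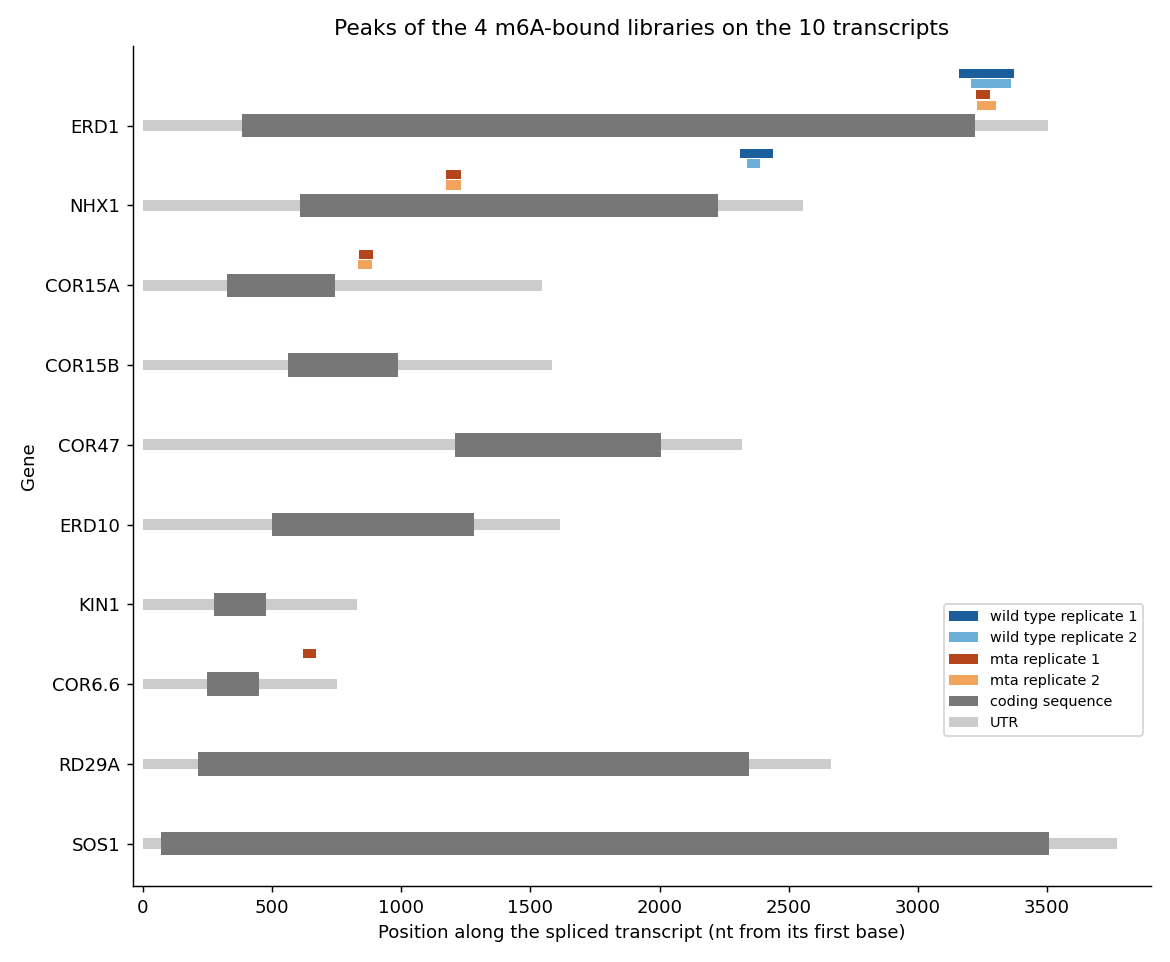
Peaks on the 10 spliced transcripts, each drawn to scale from its first base (nt), with UTRs thin, coding sequence thick and 1 coloured bar per peak and library. The ERD1 bars lie over each other at the stop codon end, the NHX1 bars of wild type and mta lie apart, and 6 transcripts carry no bar.

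ERD1 encodes ClpD, a chaperone ATPase of the chloroplast that is made as leaves dry or age. Its peak lay in the last of 12 exons in every library. In wild-type replicate 1 it ran from 20768417 to 20768629 on chromosome 5 and scored 88, at percentile 82.4 of the list. In wild-type replicate 2 it ran from 20768467 to 20768618 and scored 26, at percentile 31.6. In mta replicate 1 it ran from 20768484 to 20768538 and scored 33, at percentile 48.1. The wild-type peaks were thus broad and reached back over the stop codon, with 65 and 15 of their bases in coding sequence. In mta replicate 2 the peak ran from 20768489 to 20768562 and scored 43, at percentile 26.9. Both mta peaks lay wholly in the 3' UTR and inside both wild-type peaks.

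The ERD1 peaks were 213 and 152 bp wide in wild type and 55 and 74 bp in mta. Over all peaks the median widths were likewise larger in wild type, 88 and 83 bp against 56 and 54 bp in mta. All 4 ERD1 peaks covered 50 common bases. Their midpoints lay 42, 61, 30 and 44 nt past the stop codon, which is nearer to it than the medians of all 3' UTR peaks (119 and 118 nt in wild type, 115 and 114 nt in mta). A stretch met by a peak of every list was found in 327 of the 532 genes with a peak in all 4 lists (61.5%), so ERD1 had the more frequent pattern.

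NHX1 exchanges sodium or potassium for protons across the vacuole membrane and helps the cell store these ions. In wild-type replicate 1 its peak ran from 9557353 to 9557480 on chromosome 5, was 128 bp wide and scored 55, at percentile 54.2. In wild-type replicate 2 it ran from 9557380 to 9557430, was 51 bp wide and scored 14, at percentile 1.79, among the lowest of that list. Both lay in the 3' UTR in exon 14 of 14, with midpoints 150 and 139 nt past the stop codon. In mta replicate 1 the peak ran from 9555598 to 9555655 and scored 26, at percentile 28.3. In mta replicate 2 it ran from 9555598 to 9555654 and scored 41, at percentile 22.1. The mta peaks thus began at the same base and ended 1 base apart, inside exon 7, with their midpoint 36.7% of the way through the coding sequence.

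On the spliced NHX1 transcript the wild-type and mta midpoints were 1163 to 1174 nt apart, and no wild-type peak met an mta peak. NHX1 was 1 of 102 genes among the 532 with a peak in all 4 lists (19.2%) whose wild-type peaks all lay in the 3' UTR and whose mta peaks all lay in coding sequence. Coding peaks made up a larger share of the mta lists in general: 44.0% and 52.1% of placed peaks in mta, against 8.22% and 8.79% in wild type. The wild-type NHX1 peaks had GC contents of 32.0% and 35.3%, and the mta peaks 48.3% and 47.4%. The medians of all 3' UTR peaks in wild type were 32.6% and 32.4%, and those of all coding peaks in mta 44.4% and 44.0%. The NHX1 peaks thus differed in GC content in the same direction as the parts of the transcript that held them. The coding stretch is 84.2% identical to NHX2 (AT3G05030), the closest vacuolar relative, with 9 mismatches in 57 bases, and NHX2 had no peak in any list.

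SOS1, the antiporter that exports sodium at the plasma membrane, had no peak although its transcript is the longest of the 10, at 3772 nt with 23 exons. It holds 40 RRACH matches, 39 of them in coding sequence.

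COR15A is a small protein of the chloroplast stroma that stabilises inner membranes on freezing, and COR15B is its tandem copy, 7 bases away on the same strand. In mta replicate 1 the COR15A peak ran from 17711095 to 17711149 on chromosome 2 and scored 36, at percentile 57.3. In mta replicate 2 it ran from 17711098 to 17711154 and scored 51, at percentile 48.4. These are ranks near the middle of both lists. The peaks shared 52 bases, lay in the 3' UTR of all 4 annotated transcripts and had midpoints 119 and 115 nt past the stop codon, close to the mta medians of 115 and 114 nt. COR15A was 1 of 184 genes with a peak in both mta lists but in no wild-type one, and in 54 of these (29.3%) all mta peaks lay in the 3' UTR, as here.

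COR15B had no peak on its own strand. Its coding sequence is 83.8% identical to that of COR15A over 420 aligned bases, but the best match of the COR15A peak in the COR15B transcript has 25 mismatches in 52 bases. On the other strand, both wild-type lists had a peak inside the annotated COR15B span, from 17708769 to 17708888 and from 17708840 to 17708890. These were placed in the 3' UTR of the neighbouring gene AT2G42520, and they are not counted for COR15B.

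COR6.6, which RefSeq lists as KIN2, and KIN1 are a pair of very short hydrophilic proteins, 95.0% identical over their 201 coding bases. COR6.6 had a single peak, in mta replicate 1, from 5212611 to 5212661 on chromosome 5, with a score of 35 at percentile 53.3. It lay 195 nt past the stop codon, with a GC content of 21.6%. KIN1 had no peak. The 3' UTRs of the pair are only 65.3% identical, and the best match of the COR6.6 peak in the KIN1 transcript has 25 mismatches in 51 bases. Coding sequences of the pairs are alike. Whether the authors' alignment moved reads between COR15A and COR15B, KIN1 and COR6.6, or COR47 and ERD10 was not tested. For each of the 5 peak regions of the 10 genes, the bases common to its peaks, or the 1 peak of COR6.6, were searched for copies. No stretch of 25 bases from these sequences of 50 to 57 bases occurs at another place in the nuclear genome. Outer parts of the broader ERD1 and NHX1 3' UTR peaks were not covered.

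The remaining genes of this kind had 0 peaks. COR47 and ERD10 are neighbouring dehydrins, 82.3% identical over 746 aligned coding bases. RD29A, a hydrophilic protein whose promoter is a standard reporter of cold and drying, lies on chromosome 5 from 21240717 to 21243644. RefSeq lists it as LTI78. Its transcript of 2663 nt holds 49 RRACH matches, more than any other of the 10.

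Counted by library, the numbers went in the opposite direction to those of all genes. Genes with a peak numbered 2 and 2 of the 10 in wild type and 4 and 3 in mta, or 2 ± 0 against 3.5 ± 0.707 (SD, n = 2 each). The genotypes did not overlap, but the exact two-sided permutation p was 0.33, the smallest that 2 libraries against 2 can give. The test therefore cannot decide whether the genotypes differ, and the genes were chosen with results of these data known. Among all protein-coding genes the shares with a peak were 27.1% and 20.3% for wild type, and for mta 5.62% and 6.01%. The count of the 10 was thus near the background in wild type and above it in both mta lists. With scores of at least 50 the order turned, with 2 and 0 of the 10 genes in wild type (ERD1 and NHX1 in replicate 1) against 0 and 1 in mta (COR15A in replicate 2). That minimum cut the lists unequally: 50 is the median score of wild-type replicate 1, while the highest score of wild-type replicate 2 is 58. The peaks on these genes mostly rank in the middle or lower part of their lists, so the count of the 10 genes depends on the threshold.

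Set by pattern, 2 of the 10 genes were found in both wild-type lists, where the background was 18.9%. In both mta lists 3 had one, against 3.05%, and in all 4 lists 2 had one, against 1.94%. The pattern of COR15A, both mta lists and neither wild-type list, was found in 0.670% of all genes. The most frequent pattern among genes with a wild-type peak, both wild-type lists and neither mta list, was found in 0 of the 10 and in 14.0% of all genes. In no list were 6 of the 10 genes, against 69.1% of all genes, which is near the background. These are counts of a few genes and carry no test, since the genes were chosen with results of these data known.

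**Figure D2:**
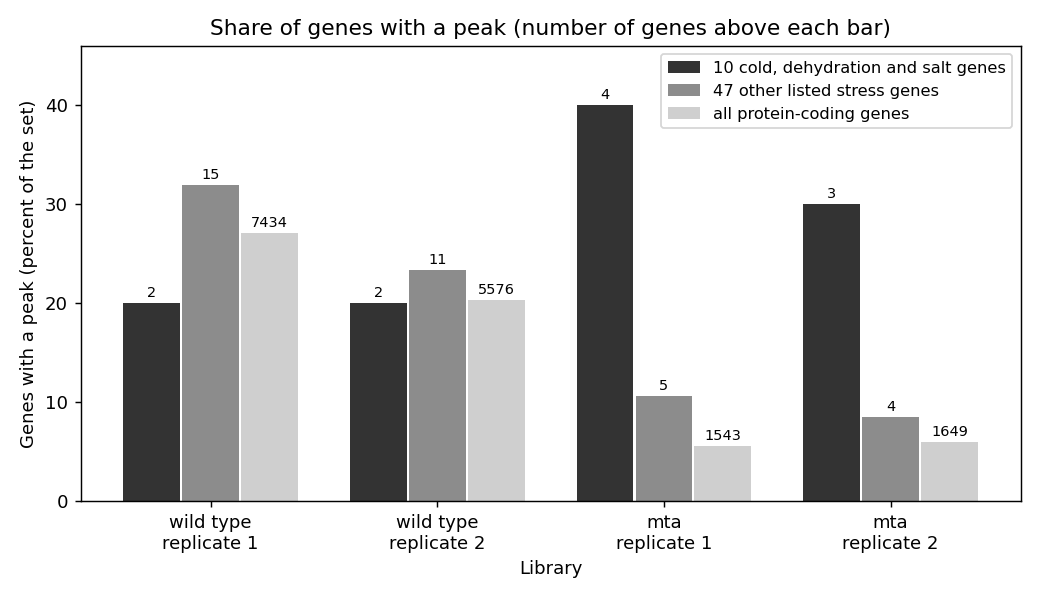
Share of genes with a peak (percent, axis from 0) in each library for the 10 genes, 47 other listed stress genes and all 27444 protein-coding genes, with the number of genes above each bar. The 10 genes hold 2, 2, 4 and 3 with a peak, while the other sets fall from wild type to mta.

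Transcript length and structure varied widely among the 10. The 2 genes with wild-type peaks had long transcripts of many exons, ERD1 with 3504 nt in 12 exons and NHX1 with 2553 nt in 14. COR15A and COR6.6 had 1544 nt in 2 exons and 750 nt in 3. SOS1, RD29A and COR47 had transcripts of 3772, 2663 and 2320 nt and no peak, so length did not divide the set. Among all genes, peaks in both wild-type lists were found for 10.5% of the 6861 genes with the shortest transcripts (up to 973 nt) and 22.2% of the 6861 with the longest (from 2059 nt), and peaks in both mta lists for 3.61% and 1.65%. KIN1 and COR6.6 are in the shortest class, and ERD1, NHX1, COR47, RD29A and SOS1 in the longest. The 3' UTRs of ERD1 and NHX1 were 283 and 328 nt, against a median of 222 nt over all genes. That of COR15A was 800 nt in the chosen transcript and 209 nt in the shortest.

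The consensus was present near most peaks. RRACH lay within 50 nt of the midpoint in 9 of the 11 peaks, the exceptions being both COR15A peaks. The background was high: among all placed peaks it was 77.1% and 77.2% for wild type, and for mta 72.4% and 74.0%. Of all positions on the ERD1 and NHX1 transcripts, 69.5% and 64.4% had an RRACH within 50 nt, and on COR15A 74.2% did. The match nearest to a midpoint was at the third letter of AAACA in NHX1, 0 nt away in wild-type replicate 2. TRTAY lay within 50 nt in all 4 ERD1 peaks, with 6, 7, 4 and 7 matches, overlaps included. On the ERD1 transcript 8 of the 20 TRTAY matches were in the 3' UTR. The NHX1 wild-type peaks had 2 each, the COR6.6 peak had 1, and the NHX1 mta peaks and both COR15A peaks had 0. Among all placed peaks the share with TRTAY was 56.9% and 56.4% for wild type, and for mta 44.5% and 39.6%.

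Of 47 other genes of these responses, 10 were present in both wild-type lists, 2 in both mta lists and 1 in all 4. The shares of all genes were 18.9%, 3.05% and 1.94%. By library 15, 11, 5 and 4 had one, in the order wild-type replicates 1 and 2 and mta replicates 1 and 2. Over all genes the shares in that order were 27.1%, 20.3%, 5.62% and 6.01%. Both wild-type lists and neither mta list held 7 of the 47, near the 14.0% of all genes. Unlike the 10, this wider set thus had fewer genes with a peak in mta than in wild type, as all genes did. The difference between the sets was not tested. The 27 peaks on these genes in wild type all lay in 3' UTRs, where 91.5% and 90.8% of all placed wild-type peaks lay. The 10 placed peaks in mta lay in 3' UTRs and coding sequence in equal number, 5 and 5. Over all placed mta peaks 44.0% and 52.1% were in coding sequence, so this split was near the background.

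Of 10 regulators of cold and drought responses, 3 were found in each wild-type library but in no mta library, a pattern shared by 14.0% of all genes. ICE1 and ICE2, transcription factors that act ahead of the CBF genes, and CAMTA3, a calmodulin-binding activator of CBF genes, were these 3, each with its peaks in the 3' UTR. The CAMTA3 peaks scored 76 and 35 and had midpoints 85 nt past the stop codon in both. The ICE1 peaks scored 70 and 19, and those of ICE2 41 and 28. CBF1, CBF2 and CBF3 themselves had 0 peaks. HOS1, DREB2A and DREB2B also had 0, and RD26 had a peak in mta replicate 2 alone. Thus 6 of the 10 regulators were in no list, near the 69.1% of all genes.

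Of 11 further genes of sodium and proton transport, NHX5 and NHX6, exchangers of endosomes and the Golgi, had 3' UTR peaks in both wild-type lists and in neither mta list. The NHX5 peaks had midpoints 115 and 111 nt past the stop codon and scored 56 and 42, at percentiles 56.2 and 80.1. The NHX6 peaks nearest its stop codon scored 68 and 25. These are 2 of 11 genes, against 14.0% of all genes with this pattern. In mta 0 of the 11 had a peak, where the background was 5.62% and 6.01% in the separate libraries. SOS2 and SOS3, the kinase and calcium sensor that activate SOS1, had none in any list. In total 8 of the 11 were in no list, against 69.1% of all genes. Of the 3 chloroplast Clp ATPases related to ERD1, CLPC2 and CLPB3 had 3' UTR peaks in each wild-type library but none in mta, and CLPC1 had none. That is 2 of 3 genes with a pattern found in 14.0% of all genes. The CLPC2 peaks scored 69 and 36 (percentiles 68.1 and 70.7) and those of CLPB3 99 and 18 (percentiles 87.1 and 6.92).

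Among the 13 other effectors of cold and drying was COR413IM2 (AT1G29390, listed by RefSeq as COR314-TM2), a chloroplast inner membrane protein. It had the 3' UTR pattern of ERD1 and, as at NHX1, a coding peak in both mta lists. Unlike NHX1, it kept its 3' UTR peak in mta. Its 3' UTR peak was present in all 4 libraries, and it scored 81 and 29 in the wild-type replicates and 30 and 52 in those of mta. Both mta lists had a further peak in its coding sequence, from 10287505 to 10287559 and from 10287505 to 10287558 on chromosome 1, which again shared 1 edge exactly. Of their bases, 46 and 45 lay in the coding exons of the chosen transcript. RD2 had 3' UTR peaks in both wild-type lists and a coding peak in mta replicate 1. The dehydrins RAB18, LTI30, XERO1 and ERD14 had 0 peaks in wild type, and RAB18 had 1 in mta replicate 1.

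Among 10 other genes found through early response to dehydration, ERD6, a member of the sugar transporter family, had 3' UTR peaks in every library but mta replicate 1. ERD2, a heat shock protein of the HSP70 family, had a coding peak in both mta lists alone, with scores of 62 and 113 at percentiles 93.4 and 98.2. It lay about 6% into the coding sequence, at 5.77% and 6.04%, far ahead of the NHX1 position. The bases common to both ERD2 peaks are shown for comparison with the coding stretch of NHX1, with RRACH in capitals.
ERD2 coding sequence, chr1:21117227-21117279, plus strand: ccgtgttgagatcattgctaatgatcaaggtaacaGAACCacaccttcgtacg
Of the 29 stretches of 25 bases in it, 21 occur at more than 1 place in the nuclear genome. Whether reads of related HSP70 genes were placed there was not tested.

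**Figure D3:**
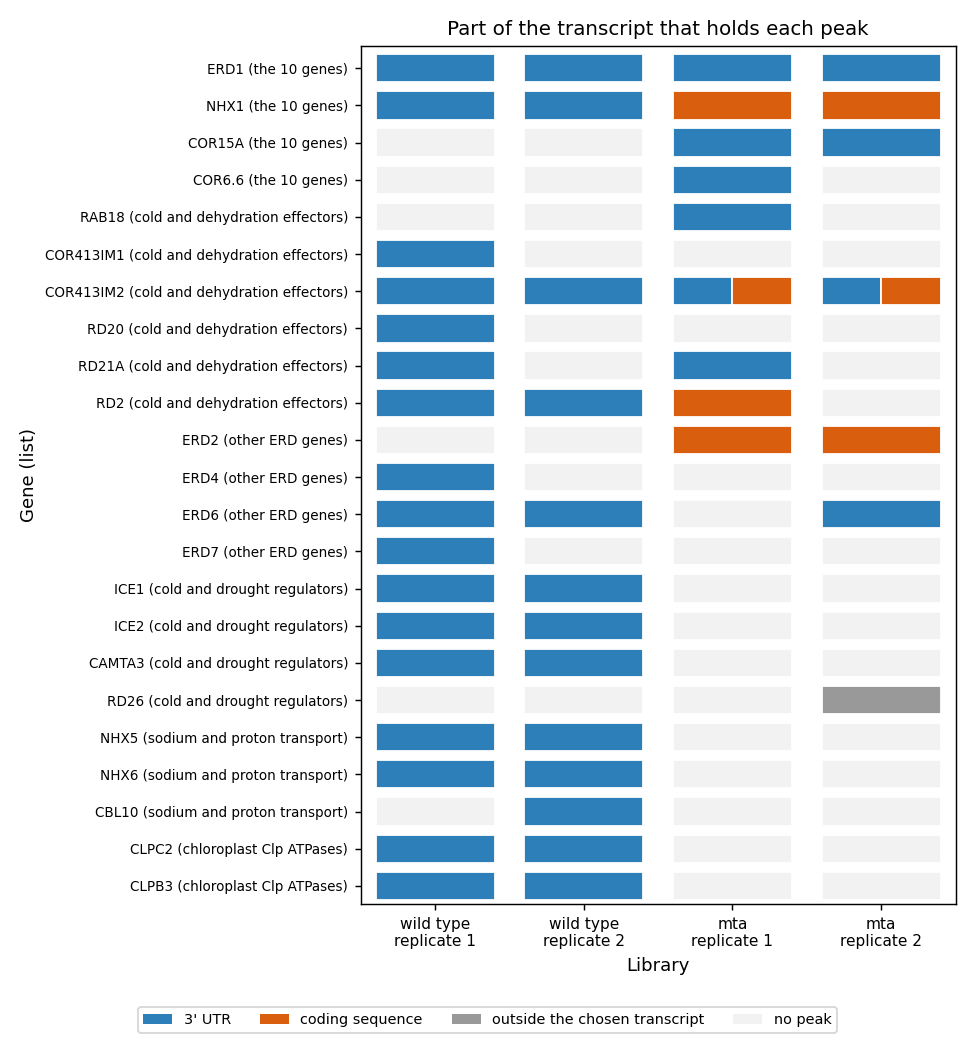
Part of the transcript that holds the peaks of each stress gene with any peak, 1 row per gene and 1 column per library; a split cell holds peaks in both parts. Wild-type cells are all 3' UTR, and coding sequence appears in mta alone, at NHX1, COR413IM2, RD2 and ERD2.

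Genes most like ERD1, NHX1 and COR15A were found by the distance between score percentiles over the 4 libraries, with 0 for no peak. For ERD1 these were AT5G58110, annotated as a chaperone-binding ATPase activator, at a distance of 19.5, the small GTPase ROP2 at 20.2 and the ultraviolet-B receptor UVR8 at 20.4. For NHX1 they were AT4G22820, annotated as a zinc finger protein, at 8.94, AT1G01300, annotated as an aspartyl protease, at 13.7, and AT5G56670, annotated as a ribosomal protein S30, at 14.2. The first 2 of these had no peak in wild-type replicate 2, where NHX1 ranked near the bottom. For COR15A they were the actin nucleation subunit CRK at 4.34, AT1G22690, annotated as gibberellin-regulated, at 5.47, and SCD1, needed for cytokinesis of stomata, at 7.12. The measure rests on 4 values per gene.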

How the data were processed

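The tools named are STAR 2.4.0 and MACS2, with TAIR10 as the build, per the submitters' processing notes. The version and settings of MACS2 are not given here. The deposited lists give position, strand and the authors' score of each peak, whose scale no header states. Peak names show that peaks were called on each library alone and each strand apart, and those of mta replicate 2 are named differently from the rest. The supernatant libraries were not analysed here.

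Positions were set on RefSeq's TAIR10.1 annotation. A peak belongs to a gene when its midpoint lies in a same-strand exon of that gene and no other. Parts refer to the transcript of longest coding sequence, stop codon included. Motifs were searched on the spliced transcript within 50 nt of the midpoint, and peaks were shared at 1 bp of overlap. Placement was tested on simulated data drawn from the same annotation, which checks the code but not the annotation or the choice of transcript. Python 3.11.15, NumPy 2.4.6, SciPy 1.17.1 and Biopython 1.88 were used.

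The 10 genes and the lists were chosen with earlier results of these data known. Named genes are the 10, listed genes with a peak in both lists of a genotype, and the 3 nearest in pattern to each of the 10 with a peak in at least 2 lists; outside this rule, CBF1 to CBF3, HOS1, DREB2A, DREB2B, RD26, SOS2, SOS3, NHX2, CLPC1 and the other dehydrins are named to account for their lists, and AT2G42520 and AT5G51080 as neighbours, chosen after their values were seen. Counts per library were compared by exact permutation; other counts stand beside the share of all genes. Alternatives covered the score, list length, peak assignment, transcript, motif, window, overlap, the KIN1 and COR6.6 pair and each library left out.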

Additional observations from a re-analysis of the deposited data

How the results depend on the processing

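The count of the 10 genes with a peak differed by -1.5 genes (wild type minus mta), and it kept this direction under every alternative tried but the score minimum. With scores of at least 50 the difference was 0.5. Of the 10 genes, 0 then remained in both wild-type lists, 0 in both mta lists and 0 in both mta lists alone. Of all 27444 genes, 588 were then in both wild-type lists and 156 (0.568%) in both mta lists. The share of mta peaks in coding sequence on the 10 genes was then 0% of 1 peak in place of 28.6% of 7. With every list shortened to the 1934 highest-scoring peaks, 0 of the 10 genes were in both wild-type lists and 3 in both mta lists. Of all genes, 1191 were then in both wild-type lists and 765 (2.79%) in both mta lists. Of the 10, 2 were in both mta lists but in no wild-type one, since NHX1 lost its wild-type peaks. Leaving out 1 library at a time, genes in mta and not in wild type numbered 1 to 2, the higher value without mta replicate 2, when COR6.6 is added. Replicate numbers are not stated to mark a shared batch; in a paired comparison by replicate number the difference was -1.5 (exact permutation p = 0.5, the smallest possible with 2 pairs). Assignment by any exon overlap or the whole gene span, the first transcript, the part with most bases, and a stricter overlap left the values they bear on as they were. Of the 11 peaks, 9 had RRACH within 50 nt, 6 within 25 nt and 11 within 100 nt, and 9 had DRACH (D is any base but C) within 50 nt. Read depth is unknown, so absence from a list sets no limit on m6A.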

Other observations

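Replicates of a genotype often agreed on the exact edge of a peak in mta, a measure chosen after the NHX1 and COR413IM2 peaks had been seen. Of 979 overlapping pairs of mta peaks, 140 (14.3%) had the same lower coordinate and 26.6% shared a start or an end. Of 5912 overlapping pairs in wild type, 165 (2.79%) had the same lower coordinate and 6.38% shared an edge. Peaks were narrower in mta, and the part of width in this was not tested.

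The gene that faces ERD1 from the other strand, AT5G51080, annotated as an RNase H family protein, had a 3' UTR peak in both wild-type lists, from 20768822 to 20768908 and from 20768830 to 20768905 on chromosome 5, and none near ERD1 in mta. The ERD1 peak itself was present in all 4 libraries.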
